A study of Rattus norvegicus with 30 samples.

Results

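Abcg5 and Abcg8, the 2 proteins of the liver's sterol exporter, were examined together with the cholesterol efflux transporter Abca1 and with Nr1h3, which encodes the liver X receptor LXR alpha. The members were taken by the gene symbol that the array's platform table gives, which found 7 probe sets for these 4 genes, out of 31042 probe sets and 14217 genes read on the array. The 4 genes were selected on their differences between PBDE and control pups in earlier results from these arrays. Their values in that contrast are therefore given as a description with no test, and the tests are those in adult males and between the sexes.

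Abcg5 and Abcg8 work only as a pair. Together they form an ATP-driven pump in the canalicular membrane of the hepatocyte, which secretes cholesterol and plant sterols into bile, and loss of either protein causes sitosterolaemia in humans. Abca1 moves cholesterol and phospholipid out of the cell onto apolipoprotein A-I, the first step of HDL formation. LXR alpha is a nuclear receptor that is activated by oxysterols, binds DNA with a retinoid X receptor and is known in mice and humans to raise transcription of all 3 exporters.

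Rats of the Wistar/Han strain were given DE-71, a commercial flame retardant made of several polybrominated diphenyl ethers (PBDE), by gavage in corn oil. Male PBDE pups and female PBDE pups (postnatal day 22) came from dams given 50 mg/kg and were also dosed themselves, and adult male PBDE rats (week 13) continued on that dose after weaning. Male control pups, female control pups and adult male controls belonged to the 0 mg/kg group, and each of the 6 groups held 5 livers. No dam gave more than 1 pup, nor more than 1 adult in a dose group, and RNA from a piece of whole liver was hybridised to 1 Affymetrix rat genome array per animal.

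All values are log2 signals deposited after RMA, which puts all arrays on a common scale; a difference of 1 is a 2-fold difference, and levels of different probe sets cannot be set against each other. Array medians ran from 5.72 to 5.77. Hepatocyte markers averaged between 14.52 and 14.77 on every array, with albumin between 15.42 and 15.46, and differed with dose within that range, as given with the other cell types at the end. The intestine also makes Abcg5 and Abcg8, so intestinal markers bear on these genes. Of these, Vil1 (3.90 to 4.58) and Cdx2 (4.50 to 5.32) lay below the array medians on all 30 arrays, whereas Fabp2 lay between 6.42 and 7.83. Cdh17 lay between 4.75 and 11.68, and averaged 9.77 in adult male PBDE rats and 9.88 in adult male controls, against 5.34 to 6.24 in the pup groups. Array names in the labels divide the arrays into 2 sets of 3 groups: the male PBDE, male control and female control pups, and the female PBDE pups with both adult groups. In female pups, array set and dose thus cannot be told apart, and likewise array set and sex among the PBDE pups.

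Abcg5 and Abcg8 stand head to head on rat chromosome 6. In the GRCr8 assembly, Abcg5 runs forward from 15717936 to 15743376 and Abcg8 runs on the opposite strand from 15717730 down to 15698448, which leaves 205 bases between the gene starts. The promoter windows of RefSeq, from 250 bases before to 50 bases after each start, therefore share 295 of their 300 bases. The window is shown because it is the control region both genes have in common. It is read here on the strand of Abcg5 (chr6:15717686-15717985), with capitals marking TATAAA and both AGATAA motifs.
Abcg5 and Abcg8 shared promoter: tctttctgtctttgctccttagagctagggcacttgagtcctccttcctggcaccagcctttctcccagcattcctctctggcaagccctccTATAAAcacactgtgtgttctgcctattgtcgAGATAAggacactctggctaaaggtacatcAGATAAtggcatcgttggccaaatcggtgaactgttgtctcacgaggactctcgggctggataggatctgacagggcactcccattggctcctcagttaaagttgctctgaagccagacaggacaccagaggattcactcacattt

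The AGATAA motif, a form of the site bound by GATA factors, begins at positions -126 and -96 from the start of Abcg5. Of 33469 rat promoter windows of this length, 11.6% held AGATAA on either strand and 1.09% held it at least 2 times. TATAAA, found in 14.2% of windows, begins at -158 from the start of Abcg5. No match to the relaxed DR4 form of an LXR element (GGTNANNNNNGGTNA, in 0.675% of windows), the strict DR4 form (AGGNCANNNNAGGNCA, 0.179%), the DR1 form (AGGNCANAGGNCA, 0.415%) or the LRH-1 motif (AAGGTCA, 4.61%) was found in this window on either strand. The motifs found did not overlap each other. Abca1 lies on the reverse strand of chromosome 5 (72473676 to 72596563) and its RefSeq promoter window held 1 relaxed DR4 match, shown because Abca1 is the only one of the 4 genes with such a match.
Abca1 DR4 match (chr5:72596529-72596543, reverse strand): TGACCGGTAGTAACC
Its capitals are the whole match, which reads as the DR4 form on the forward strand and begins at -70 from the start that RefSeq's promoter table uses. Nr1h3 lies on the reverse strand of chromosome 3 (97614616 to 97632053) and held 1 AGATAA at -90 from the start used there. For Abca1 and Nr1h3 the start used by the promoter table lies inside the annotated gene. These matches describe letters in a window and were not tested for binding.

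In pups, both genes of the sterol exporter were far lower with PBDE. Abcg5 read 6.63, 7.77, 7.21, 7.51 and 6.91 in male PBDE pups, against 10.07, 10.16, 8.14, 9.50 and 9.11 in male control pups. Every male PBDE pup lay below every male control pup. The difference of means was -2.19 ± 0.31 (log2, SE from the fit, n = 5 per group), a 4.57-fold lower level in PBDE pups. In females, Abcg5 read 7.34, 7.15, 7.34, 7.54 and 6.41 in PBDE pups, against 9.64, 9.39, 9.34, 9.34 and 8.48 in control pups. The female groups did not overlap either, and differed by -2.08 ± 0.31, or 4.24-fold.

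Abcg8 showed a difference of like size. In males it read 4.65, 5.16, 4.68, 4.95 and 4.93 in PBDE pups, against 8.30, 8.57, 5.75, 7.34 and 7.52 in control pups. Male control pup 3 was the lowest of its group for both Abcg5 and Abcg8, and still lay above all male PBDE pups. The difference was -2.63 ± 0.31, or 6.17-fold lower in PBDE pups. In females Abcg8 read 4.64, 4.87, 4.67, 4.94 and 4.28 in PBDE pups, against 7.53, 6.66, 6.76, 7.10 and 6.50 in control pups. These groups were also apart, with a difference of -2.23 ± 0.31, or 4.69-fold. All PBDE pups lay below the array medians for Abcg8, where array signal can compress differences. Whether these values understate the change was not tested. As background, all PBDE arrays lay below all controls for 5.13% of genes in male pups and 4.38% in female pups; nothing is read from the members' share, since this contrast chose them. In bulk tissue, fewer cells of a type and less RNA per cell cannot be told apart.

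**Figure D1:**
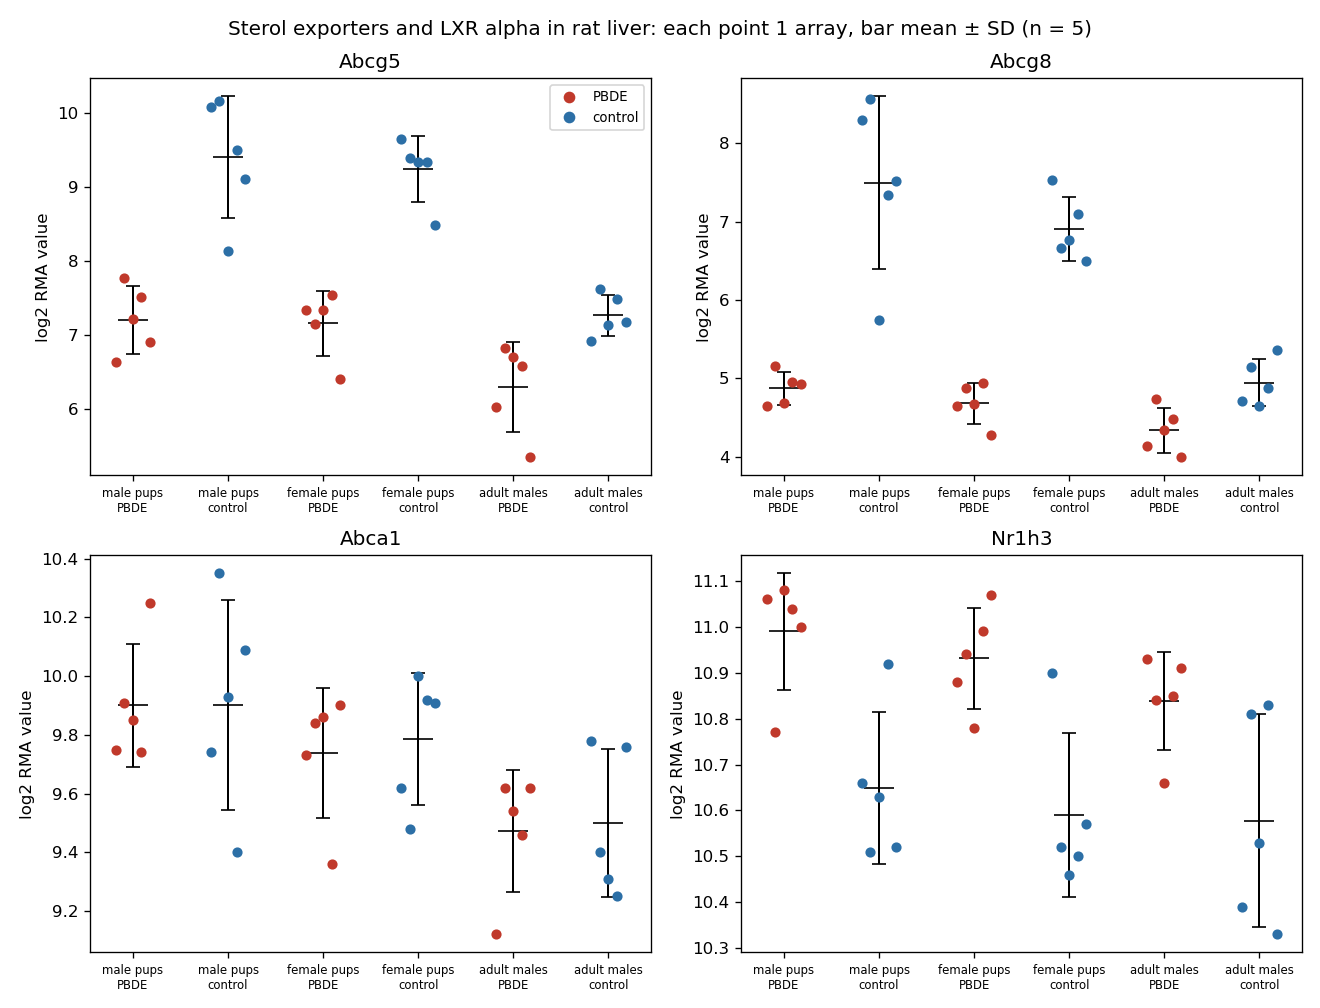
The log2 RMA signal of Abcg5, Abcg8, Abca1 (its probe set with the highest mean) and Nr1h3 is plotted for each of the 30 livers, by group, with a bar at each group mean and its SD (n = 5 per group). Abcg5 and Abcg8 are highest in the control pups of both sexes, Abca1 is level across dose, and Nr1h3 is slightly higher in each PBDE group.

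Nr1h3, the receptor, lay on the other side of its controls. It read 11.06, 10.77, 11.08, 11.04 and 11 in male PBDE pups, against 10.66, 10.51, 10.63, 10.92 and 10.52 in male control pups. In 4 of 5 male PBDE pups the value was above all controls, and the difference was 0.34 ± 0.10, or 1.27-fold higher in PBDE pups. In females it read 10.88, 10.94, 10.78, 10.99 and 11.07 in PBDE pups, against 10.90, 10.52, 10.46, 10.50 and 10.57 in control pups. The difference was again 0.34 ± 0.10, with 3 of 5 PBDE pups above all controls.

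Abca1, read from its probe set with the highest mean, hardly differed with dose in pups. It read 9.75, 9.91, 9.85, 9.74 and 10.25 in male PBDE pups, against 9.74, 10.35, 9.93, 9.40 and 10.09 in male control pups. The values overlapped throughout and the difference was 0.00 ± 0.15. In females it read 9.73, 9.84, 9.86, 9.36 and 9.90 in PBDE pups, against 9.62, 9.48, 10.00, 9.92 and 9.91 in control pups, a difference of -0.05 ± 0.15.

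The other 3 probe sets of Abca1 did not all give the same picture. Probe set 1394490_at averaged 6.56 ± 0.35 in male PBDE pups, against 7.21 ± 0.34 in male control pups (SD, n = 5 each), and 6.51 ± 0.25 in female PBDE pups against 7.30 ± 0.35 in female control pups. Its female groups did not overlap, and the differences were -0.64 ± 0.19 in males and -0.79 ± 0.19 in females (SE). Probe set 1382431_at differed by -0.24 ± 0.18 in males and -0.58 ± 0.18 in females, and 1384381_at by -0.06 ± 0.17 and -0.29 ± 0.17. Which transcripts of Abca1 each probe set reads was not analysed here, so the size of any Abca1 difference in pups depends on the probe set, from 0.00 to -0.64 in males and from -0.05 to -0.79 in females.

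The adult males gave the dose test that did not enter the choice of genes. None of the 4 genes passed a false discovery rate of 0.05 in limma (Benjamini-Hochberg adjustment over all 31042 probe sets), although Abcg5 and Nr1h3 each had an unadjusted p below that value. Abcg5 read 6.03, 6.82, 6.71, 6.58 and 5.35 in adult male PBDE rats, against 6.92, 7.62, 7.14, 7.48 and 7.17 in adult male controls. All 5 PBDE rats lay below all 5 controls, which was so for 2.15% of genes. The difference was -0.97 ± 0.31 (95% interval -1.61 to -0.33), or 1.96-fold, with limma adjusted p = 0.0875. It was -0.64, with limma adjusted p = 0.304, when the Gapdh 3' to 5' difference described below entered the fit as a covariate.

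Abcg8 read 4.13, 4.73, 4.34, 4.48 and 3.99 in adult male PBDE rats, against 4.71, 5.14, 4.64, 4.88 and 5.36 in adult male controls. In 4 of 5 PBDE rats the value was below all controls. The difference of -0.61 ± 0.31 did not pass (95% interval -1.24 to 0.02, limma adjusted p = 0.324), and both groups lay below the array medians. Nr1h3 read 10.93, 10.84, 10.66, 10.85 and 10.91 in adult male PBDE rats, against 10.39, 10.81, 10.53, 10.83 and 10.33 in adult male controls. With 4 of 5 PBDE rats above all controls, its difference was 0.26 ± 0.10 (95% interval 0.06 to 0.47, limma adjusted p = 0.166). The sign in adults was that of the pups for Abcg5, Abcg8 and Nr1h3.

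Abca1 read 9.12, 9.62, 9.54, 9.46 and 9.62 in adult male PBDE rats, against 9.78, 9.40, 9.31, 9.25 and 9.76 in adult male controls. The groups overlapped, with a difference of -0.03 ± 0.15 (95% interval -0.34 to 0.28, limma adjusted p = 0.954). The other 3 probe sets gave 0.09 ± 0.18, -0.20 ± 0.17 and -0.14 ± 0.19, with limma adjusted p = 0.854, 0.634 and 0.784.

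**Figure D2:**
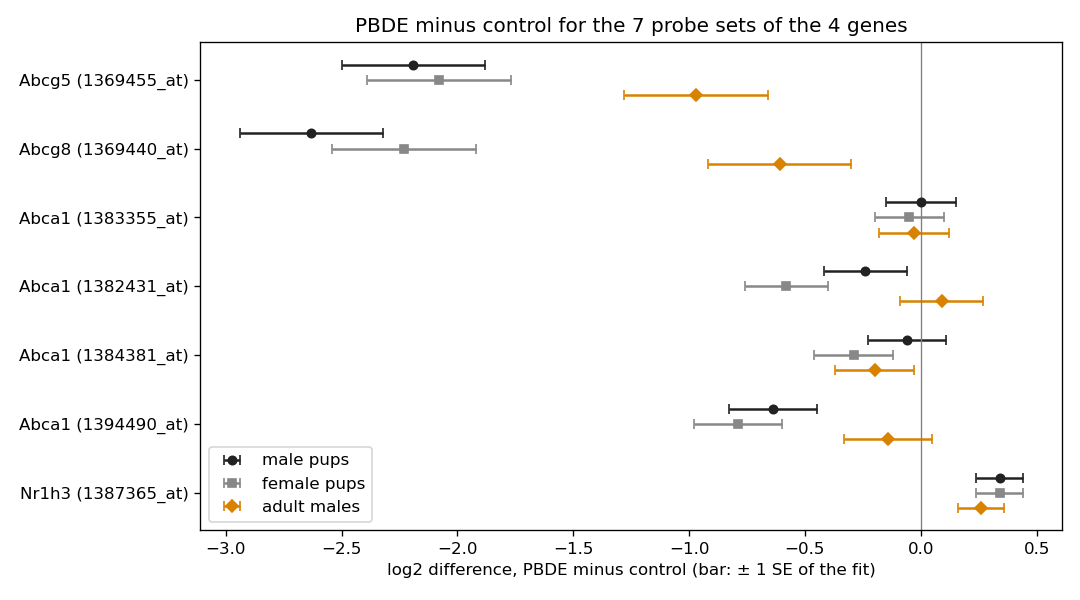
The PBDE minus control difference (log2) of each of the 7 probe sets is plotted for male pups, female pups and adult males, with bars of 1 SE either way from the limma fit. Abcg5 and Abcg8 lie between -2.63 and -2.08 in pups and at -0.97 and -0.61 in adult males, while Nr1h3 lies between 0.26 and 0.34 in all 3 comparisons.

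Sex made no difference that passed a test. Among control pups, which lie in 1 array set, the male minus female difference was 0.16 ± 0.31 for Abcg5 (95% interval -0.48 to 0.80, limma adjusted p = 0.946) and 0.59 ± 0.31 for Abcg8 (-0.04 to 1.22, limma adjusted p = 0.637). The Abcg8 difference was 1.02 without male control pup 3 (limma adjusted p = 0.069), and 0.32 and 0.39 without male control pups 2 and 1 (limma adjusted p = 0.901 and 0.767). It was 0.12 ± 0.15 for Abca1 (-0.19 to 0.43) and 0.06 ± 0.10 for Nr1h3 (-0.15 to 0.26). Among PBDE pups the differences were 0.05 ± 0.31 for Abcg5 (-0.59 to 0.69), 0.19 ± 0.31 for Abcg8 (-0.44 to 0.82), 0.16 ± 0.15 for Abca1 (-0.14 to 0.47) and 0.06 ± 0.10 for Nr1h3 (-0.15 to 0.26), with limma adjusted p = 0.9995 for each. These intervals leave room for differences of up to 1.22 in Abcg8 in control pups. At a false discovery rate of 0.01, 0.0422% of genes (6) differed by sex among control pups and 0.0563% (8) among PBDE pups.

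As a description, the dose difference of male pups minus that of female pups was -0.11 ± 0.44 for Abcg5 and -0.40 ± 0.43 for Abcg8. The dose difference of adult males minus that of male pups was 1.22 ± 0.44 for Abcg5, 2.01 ± 0.43 for Abcg8, -0.03 ± 0.21 for Abca1 and -0.08 ± 0.14 for Nr1h3. These values hold the male pup differences by which the genes were chosen, and genes chosen for a large difference in pups would tend to differ less in animals not used for the choice. For Abcg8 the adult male controls already lay below the array medians. Whether low signal bears on its smaller adult difference was not tested.

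The order of the group means shows where the level of adult male controls lay. For Abcg5 the means, from the lowest up, were 6.30 ± 0.61 in adult male PBDE rats, 7.16 ± 0.44 in female PBDE pups, 7.21 ± 0.45 in male PBDE pups, 7.27 ± 0.28 in adult male controls, 9.24 ± 0.44 in female control pups and 9.40 ± 0.82 in male control pups (SD, n = 5 each). Abcg8 had the same order of groups. Its means were 4.33 ± 0.29 in adult male PBDE rats, 4.68 ± 0.26 in female PBDE pups, 4.87 ± 0.21 in male PBDE pups, 4.95 ± 0.30 in adult male controls, 6.91 ± 0.41 in female control pups and 7.5 ± 1.10 in male control pups. For both genes the step between adult male controls and female control pups (1.97 for Abcg5 and 1.96 for Abcg8) was the only one between neighbours whose ranges did not overlap. PBDE pups of either sex thus had Abcg5 and Abcg8 signals that overlapped those of adult male controls. Adults and pups differ in both age and, for the 2 male control groups, array set.

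For Nr1h3 the 3 PBDE groups came first in the order, at 10.99 ± 0.13 in male PBDE pups, 10.93 ± 0.11 in female PBDE pups and 10.84 ± 0.11 in adult male PBDE rats. The 3 control groups followed at 10.65 ± 0.17, 10.59 ± 0.18 and 10.58 ± 0.23 for male pups, female pups and adult males. For Abca1 the group means ran from 9.90 to 9.47, the lowest being both adult groups, and all neighbours overlapped.

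The Abcg5 and Abcg8 signals also moved together among animals of the same group. The deviations of the 30 arrays from their group means correlated with Pearson's r = 0.808 and Spearman's rho = 0.778 (permutation p = 1e-05 for each, the smallest that 100000 within-group permutations can give, and 6e-05 after adjustment over the 6 pairs of members). The correlation was positive in 6 of 6 groups, 0.875 and 0.728 in the 2 array sets (n = 15 each), and 0.743 without the 2 arrays farthest out in Abcg5. Without the male control pups, whose spread was the widest, it was 0.712 (n = 25), a check added after the values were seen.

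Abca1 and Nr1h3 deviated in opposite directions. Their correlation within groups was r = -0.591 and rho = -0.573 (permutation p = 0.00283 and 0.00406, adjusted 0.00849 and 0.0122 over the 6 pairs), negative in each group, and -0.622 and -0.562 in the array sets. It was -0.500 without the 2 arrays farthest out in Abca1, and the other Abca1 probe sets gave -0.657, -0.548 and -0.660 against Nr1h3. Such a correlation was not particular to this pair, since many other genes ran against either one more strongly. Counted from the most alike among the 14217 genes read, Nr1h3 stood at rank 13767 for Abca1, and Abca1 at rank 13981 for Nr1h3. The Gapdh 3' to 5' difference described below was not taken out of these deviations. The remaining 4 pairs had r between -0.162 and 0.121, with permutation p = 0.791 after adjustment for each. Neither Abcg5 nor Abcg8 therefore varied detectably with Nr1h3 from animal to animal within a group (r = -0.0533 and -0.0613).

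**Figure D3:**
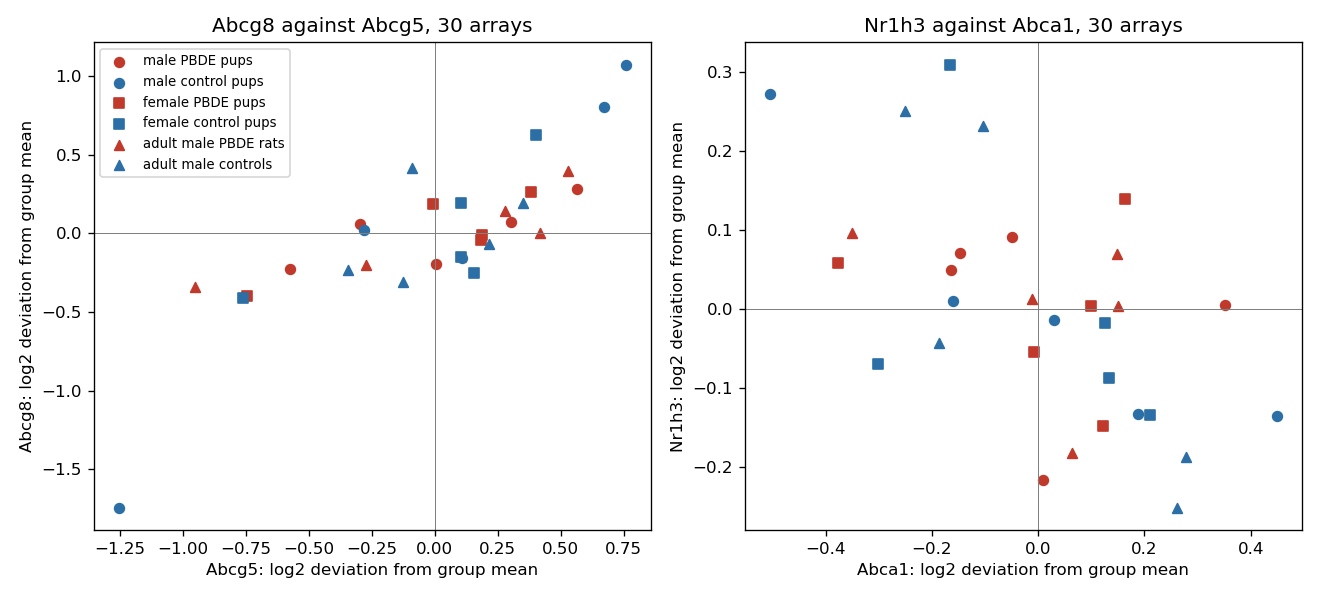
Each point is 1 liver, placed by its deviation from its group mean (log2) for 2 of the genes, with dose shown by colour and sex and age by shape. Abcg8 deviations follow those of Abcg5 (r = 0.808), while Nr1h3 deviations run against those of Abca1 (r = -0.591).

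Other genes shared the pattern of the exporter pair. Over the 30 array values, which share dose group, age and array set, Abcg5 was most like Abcg8 (r = 0.960), Slc10a1, the sodium-dependent bile acid importer (0.897), Qpct, glutaminyl cyclase (0.888), Nfe2, a transcription factor of erythroid cells (0.883), and Qsox1, a sulfhydryl oxidase (0.882). Abcg8 was most like Abcg5, Nfe2 (0.925), Hsd17b7 (0.925), Scap (0.918) and Idi1 (0.893). Hsd17b7 and Idi1 are enzymes of cholesterol synthesis, and Scap escorts the SREBP transcription factors that drive that pathway. Idi1 averaged 10.99 in male PBDE pups against 12.40 in male control pups, 11.07 in female PBDE pups against 12.35 in female control pups, and 10.95 in adult male PBDE rats against 11.18 in adult male controls.

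Once group means were removed, the likeness lists changed. The genes nearest Abcg5 were then Abcg8 (0.808), Hes5 (0.706), Cadm4 (0.685), Gata6 (0.679) and Man1a2 (0.678). Those nearest Abcg8 were Lbr (0.820), whose product has a sterol reductase domain, Abcg5, Gbp2 (0.629), Ambra1 (0.628) and LOC100910973 (0.620). Abca1 was most like Eif5b (0.844), Macf1 (0.832) and Ubap2 (0.831) over the values, and Tpr (0.850), Itih1 (0.849) and Ep400 (0.840) over the deviations. For Nr1h3 these were Entpd4 (0.865), Lsm4 (0.855) and Htatip2 (0.849) over the values, and Higd1a (0.848), Ccnq (0.813) and Snf8 (0.809) over the deviations.

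A wider set of 76 genes of sterol transport and LXR signalling, of which 63 were measured, was counted against the thresholds of the study's design. The set was chosen with earlier results of these data known, so nothing is read from how its shares compare with those of all genes. In adult males 6 of 63 (9.52%) were higher with PBDE and 0 lower, where 1.86% of all genes were higher and 2.04% lower. In male pups 8 (12.7%) were higher and 5 (7.94%) lower, against 4.23% and 3.26% of all genes. In female pups 4 (6.35%) were higher and 5 (7.94%) lower, against 3.95% and 2.18%. The median difference of the 63 genes was 0.05 in adult males, -0.04 in male pups and -0.07 in female pups, and that of all genes was 0.01, 0.02 and 0.02. The adult count was 3 without PBDE rat 4, and the female count of 9 was 5 without control pup 3 or without PBDE pup 5. Between the sexes none of the 63 passed in limma, with 12 at an unadjusted p under 0.05 among control pups and 4 among PBDE pups. The share of all genes at that unadjusted cutoff was not counted, so nothing is read from such counts here or below.

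The receptors that work beside Nr1h3 gave no call. Of LXR beta (Nr1h2) and the retinoid X receptors Rxra, Rxrb and Rxrg, 0 of 4 passed in limma in any dose comparison, with differences between -0.23 and 0.18. At an unadjusted limma p under 0.05 there were 2 in adult males, 0 in male pups and 1 in female pups, with no share of all genes counted beside them.

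LXR target genes went in both directions. Of 14 measured, Lpl, the lipase that releases fatty acids from lipoproteins, rose in male pups (10.01 in PBDE pups against 7.18 in controls, 2.83 ± 0.33, limma adjusted p = 6.45e-07) and in female pups (2.24 ± 0.33, limma adjusted p = 2.83e-05). In adult males Lpl differed by 0.63 ± 0.33 (limma adjusted p = 0.339). Srebf1, the transcription factor of fatty acid synthesis and a much-used marker of LXR activity, fell by 0.95 ± 0.17 in male pups (limma adjusted p = 0.000408). Its difference was -0.53 ± 0.17 in female pups (limma adjusted p = 0.0552) and -0.06 ± 0.17 in adult males (limma adjusted p = 0.901). Fasn, fatty acid synthase, fell by 1.12 ± 0.27 in male pups (limma adjusted p = 0.00577), a call lost without PBDE pup 3 or 4 or control pup 2, 3 or 5 (limma adjusted p 0.0129 to 0.0246). Fasn differed by -0.69 ± 0.27 in female pups and by 0.86 ± 0.27 in adult males, and passed in neither (limma adjusted p = 0.117 and 0.0741). In adult males Acaca, which makes malonyl-CoA for fatty acid synthesis, rose by 0.91 ± 0.20 (limma adjusted p = 0.00976), the only target to pass there. Abcg1, which exports cholesterol to HDL, did not pass, at -0.29 ± 0.12 in male pups, -0.16 ± 0.12 in female pups and -0.03 ± 0.12 in adult males.

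Among genes of HDL assembly and cholesterol uptake, Apoa2, an HDL apolipoprotein, rose by 1.87 ± 0.16 in male pups and 1.92 ± 0.16 in female pups (limma adjusted p = 2.51e-09 and 1.29e-09). In adult males Apoa2 differed by 0.05 ± 0.16 (limma adjusted p = 0.911). Of the 8 measured, 2 others passed in female pups alone of the comparisons made. Scarb1, the HDL receptor, fell by 0.40 ± 0.10 (limma adjusted p = 0.00931), a call lost on leaving out any 1 of the 10 arrays (limma adjusted p 0.0144 to 0.0327). Lipc, hepatic lipase, fell by 0.58 ± 0.13 (limma adjusted p = 0.00465), a call lost without control pup 2 or 3 or PBDE pup 5 (limma adjusted p 0.0176 to 0.0214). With the Gapdh covariate neither call remained (limma adjusted p = 0.0302 for Scarb1 and 0.035 for Lipc). In male pups Scarb1 differed by -0.35 ± 0.10 and Lipc by -0.48 ± 0.13, short of the 0.01 threshold (limma adjusted p = 0.0198 and 0.0173). Adult males gave -0.32 ± 0.10 for Scarb1 and -0.15 ± 0.13 for Lipc (limma adjusted p = 0.0805 and 0.65). The difference between the sexes in these responses was not tested.

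Of 11 measured genes of intracellular sterol handling, Scap fell by 0.90 ± 0.13 in male pups and 0.73 ± 0.13 in female pups (limma adjusted p = 3.82e-05 and 0.000546). In adult males Scap differed by -0.13 ± 0.13 (limma adjusted p = 0.708). Insig2, which holds Scap in the endoplasmic reticulum, rose by 1.16 ± 0.18 in male pups (limma adjusted p = 5.73e-05). It differed by 0.58 ± 0.18 in female pups and 0.09 ± 0.18 in adult males, and passed in neither (limma adjusted p = 0.0415 and 0.852). Lipa, the lysosomal acid lipase that frees cholesterol from esters, rose by 0.41 ± 0.08 in male pups (limma adjusted p = 0.00123) and 0.32 ± 0.08 in adult males (limma adjusted p = 0.030). The adult Lipa call was lost without control 2, 3 or 5 or PBDE rat 3, 4 or 5 (limma adjusted p 0.05 to 0.0864) and with the Gapdh covariate (0.0966). When the 2 groups compared were fitted alone, the Lipa call was lost in adult males and in male pups (limma adjusted p = 0.0849 and 0.0206).

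Of 10 measured transporters of the canalicular and sinusoidal membranes, Abcc2, which exports conjugates into bile, rose by 1.69 ± 0.15 in male pups, 1.21 ± 0.15 in female pups and 0.60 ± 0.15 in adult males (limma adjusted p = 3.8e-09, 1.5e-06 and 0.0183). The adult Abcc2 call was lost without PBDE rat 4 or 5 (limma adjusted p = 0.0557 and 0.0742), with the Gapdh covariate (0.0628) and with the adults fitted alone (0.0799). Abcc3, which exports conjugates back to blood, rose by 1.69 ± 0.25, 1.73 ± 0.25 and 3.81 ± 0.25 in the same comparisons (limma adjusted p = 2.77e-05, 2.28e-05 and 3.05e-11), and averaged 9.03 in adult male PBDE rats against 5.22 in adult male controls. In male pups Abcg2, an exporter of drugs and urate from the same ABCG family, fell by 1.53 ± 0.19 (limma adjusted p = 3.17e-06). It differed by -0.55 ± 0.19 in female pups and -0.61 ± 0.19 in adult males, which did not pass (limma adjusted p = 0.0822 and 0.0841). Male control pups read 1.02 ± 0.19 above female control pups for Abcg2 (limma adjusted p = 0.0234). Abcb6, a porphyrin transporter, rose by 0.33 ± 0.08 in male pups (limma adjusted p = 0.00449), a call lost without PBDE pup 2 or 4 or control pup 2, 3 or 4 (limma adjusted p 0.0111 to 0.0151).

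Of 7 other ABCA and ABCG genes, Abca3, a phospholipid transporter, rose by 0.56 ± 0.11 in male pups (limma adjusted p = 0.000619). Abca8a fell by 0.78 ± 0.19 in female pups (limma adjusted p = 0.00816), a call lost without any 1 of the 10 arrays other than control pup 1 (limma adjusted p 0.0103 to 0.038) and with the Gapdh covariate (0.04).

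Of 9 measured regulators of Abcg5 and Abcg8, 2 were higher in adult males (against 1.86% of all genes), 1 was lower in male pups (against 3.26%) and 1 was lower in female pups (against 2.18%). Nr5a2, the nuclear receptor LRH-1, which activates the shared promoter in humans, rose by 0.42 ± 0.08 in adult males (limma adjusted p = 0.00269), and did not pass when the adults were fitted alone (limma adjusted p = 0.0626). Nr1h4, the bile acid receptor FXR, rose by 0.36 ± 0.10 in adult males (limma adjusted p = 0.0342) and fell by 0.39 ± 0.10 in male pups (limma adjusted p = 0.00754). The adult Nr1h4 call was lost without control 1, 2 or 3 or PBDE rat 1, 2 or 4 (limma adjusted p 0.0522 to 0.0992), and the call in male pups without any 1 of control pups 2 to 5 or PBDE pups 2 to 5 (limma adjusted p 0.0119 to 0.0274). Both Nr1h4 calls were also lost with the Gapdh covariate (limma adjusted p = 0.0671 in adult males and 0.0115 in male pups). With the 2 groups alone both were lost as well (limma adjusted p = 0.129 in adult males and 0.0135 in male pups). Gata6, a GATA factor, fell by 0.52 ± 0.11 in female pups, with 6.68 in PBDE pups against 7.20 in controls (limma adjusted p = 0.00298). This call was lost without control pup 1 or 3 or PBDE pup 5 (limma adjusted p 0.0105 to 0.0167), and with the Gapdh covariate (0.0337). It was lost with the 2 groups alone too (limma adjusted p = 0.015). Gata6 differed by -0.16 ± 0.11 in male pups and 0.06 ± 0.11 in adult males, and passed in neither (limma adjusted p = 0.436 and 0.852). Hnf4a and Gata4 did not pass, with differences between -0.33 and 0.10.

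**Figure D4:**
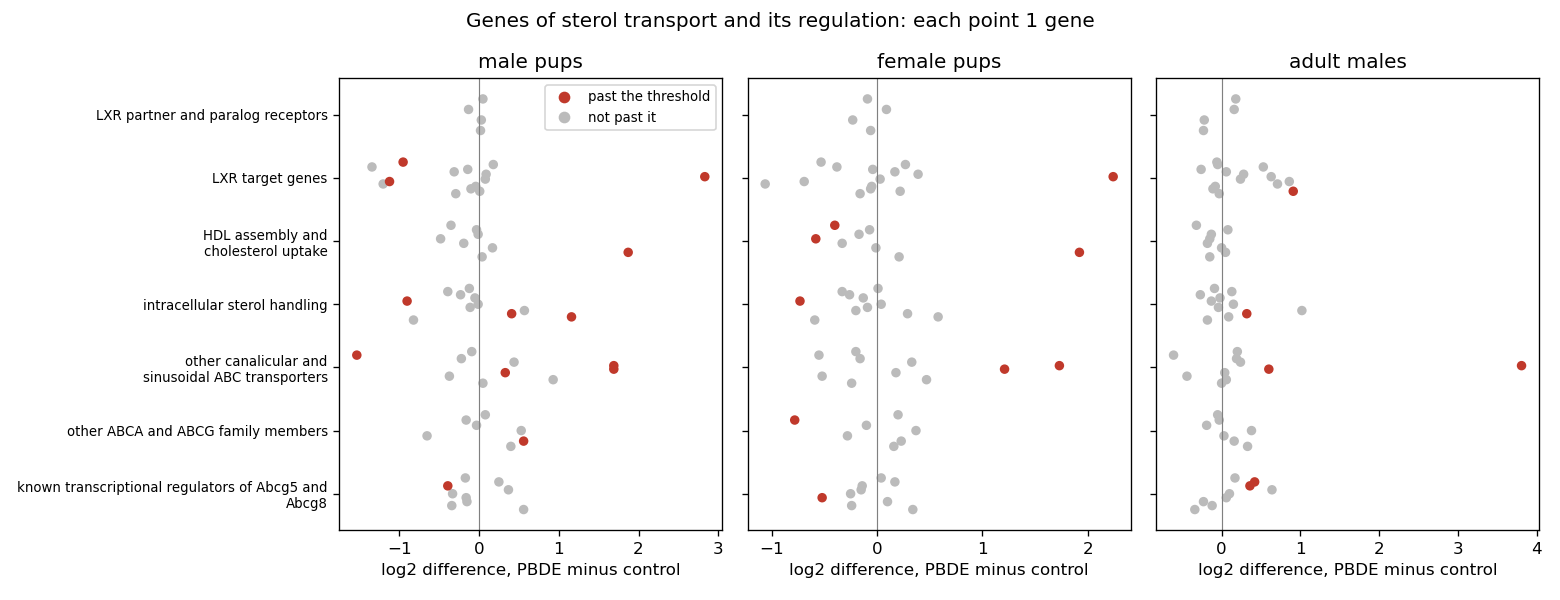
PBDE minus control differences (log2) of the genes of sterol transport and LXR signalling are plotted for male pups, female pups and adult males, grouped by list, with red points for genes past the threshold of that comparison and grey points for the rest. Lpl, Apoa2, Abcc2 and Abcc3 lie to the right in pups, and the LXR partner receptors lie near 0.

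Signs of RNA quality and of other cell types also differed with dose. The Gapdh 3' minus 5' control signal, which is larger in more degraded or less fully copied RNA, averaged 2.09 ± 0.65 in male PBDE pups against 1.61 ± 0.33 in male control pups, 1.93 ± 0.30 in female PBDE pups against 1.26 ± 0.50 in female control pups, and 1.17 ± 0.62 in adult male PBDE rats against 0.62 ± 0.18 in adult male controls (SD, n = 5 each). With this signal as a covariate the differences were -1.90 for Abcg5 and -2.52 for Abcg8 in male pups, and -1.68 and -2.08 in female pups. The mean of 10 measured markers of Kupffer cells and macrophages, which also carry Abca1 and Nr1h3, ran from 8.61 to 8.76 in male PBDE pups against 8.92 to 9.14 in male control pups, from 8.71 to 9.05 in female PBDE pups against 8.61 to 9.78 in female control pups, and from 8.42 to 9.11 in adult male PBDE rats against 9.01 to 9.55 in adult male controls. None of these markers was higher past the threshold, and 2 fell in male pups, Aif1 (-0.77) and C1qa (-0.71), and 1 in adult males, Aif1 (-0.64). At an unadjusted limma p under 0.05 there were 8 of 10 in adult males, 5 in male pups and 1 in female pups. The share of all genes at that cutoff was not counted, so whether these counts exceed it is not known. The median difference of the 10 markers was -0.41 in adult males, -0.33 in male pups and -0.15 in female pups. The C1qa call was lost without any 1 of the male pups other than control 3 and PBDE 1, and the adult Aif1 call without control 2 or 4 or PBDE rat 2, 4 or 5. Both were also lost with the Gapdh covariate (limma adjusted p = 0.02 for C1qa and 0.124 for adult Aif1). With the adults fitted alone the adult Aif1 call was lost too (limma adjusted p = 0.155). The Lyve1 call was lost without any 1 of control pups 1, 2 and 5 or PBDE pups 1, 2, 3 and 5, and with the Gapdh covariate (limma adjusted p = 0.0244). Endothelial markers averaged 9.36 in male PBDE pups against 9.91 in male control pups, 9.53 in female PBDE pups against 9.87 in female control pups, and 9.33 in adult male PBDE rats against 9.44 in adult male controls. Of 5 measured, Stab2 (-0.79), Lyve1 (-0.47) and Fcgr2b (-0.89) fell in male pups, Fcgr2b alone (-0.63) passed in female pups, and 0 passed in adult males in limma (1 at an unadjusted p under 0.05). The mean of the 5 measured hepatocyte markers ran from 14.53 to 14.60 in male PBDE pups against 14.62 to 14.71 in male control pups, from 14.52 to 14.61 in female PBDE pups against 14.68 to 14.77 in female control pups, and from 14.59 to 14.66 in adult male PBDE rats against 14.64 to 14.74 in adult male controls. The pup groups did not overlap in either sex. One of these markers, the urea cycle enzyme Cps1, fell in male pups (-0.29, limma adjusted p = 0.0078) and in female pups (-0.31, limma adjusted p = 0.00592). The Cps1 call was lost without any 1 of control pups 1, 2, 3 and 5 or PBDE pups 1, 2, 3 and 5 in males, and of control pups 2 to 5 or PBDE pups 1, 3 and 4 in females. In female pups it was also lost with the Gapdh covariate (limma adjusted p = 0.0126). With the 2 groups alone the Cps1 call was lost in both sexes (limma adjusted p = 0.0218 in males and 0.0366 in females). Epcam, a cholangiocyte marker, rose in all 3 dose comparisons, by 1.07 in male pups, 0.92 in female pups and 1.13 in adult males. The other cholangiocyte markers did not follow it. Krt19 differed by -0.28, -0.32 and -0.23 in the same order and Spp1 by -0.07, 0 and -0.19, and neither passed. Krt7 (3.82 to 4.49) and Cftr (3.67 to 4.27) did not pass either and lay below the array medians on all arrays. With the Gapdh signal as a covariate the Epcam call in female pups was lost (limma adjusted p = 0.0116). Of 6 stellate cell and fibroblast markers, Lrat (-0.77) and Pdgfrb (-0.44) fell in female pups. The Pdgfrb call was lost without control pup 1, 2, 4 or 5 or PBDE pup 1, 3 or 5 and with the Gapdh covariate (limma adjusted p = 0.0755). The rest of that list did not pass there, with Col1a1 (0.76), Des (0.49) and Col3a1 (0.12) higher and Dcn (-0.30) lower. The mean of the 6 markers was 8.35 in female PBDE pups against 8.37 in female control pups. The part of these shifts in the values of Abcg5, Abcg8, Abca1 and Nr1h3 was not tested.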

How the data were processed

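The values are log2 signals that the authors made with RMA, per the submitters' processing notes, from 1 Affymetrix array per liver; which RMA version was used is not given in the sources used here. As deposited, the table held 31099 probe sets on 30 arrays, with 0 value columns left unused. The 57 control probe sets served for quality measures, and 31042 were tested. By the platform's gene table, 20826 probe sets name 1 gene, 436 name several and 9780 are unnamed here. For 20758 of those naming 1 gene the RefSeq symbol was used, whether or not it differed. A gene was read from the probe set naming it alone that had the highest mean.

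All 6 groups entered a single limma fit (limma 3.58.1 under R 4.3.3, eBayes), tested on simulated data first, and p-values were adjusted by Benjamini-Hochberg across the whole of the 31042 probe sets. The false discovery rate was 0.05 in adults and 0.01 in pups, as in the design the authors describe. No filter on low values was applied. The number of arrays limits the precision. The genes and the lists were chosen with earlier results of these data known. Of each list and dose comparison, up to 4 genes past the threshold with the largest differences were to be named, and for likeness the 5 genes nearest Abcg5 and Abcg8 and the 3 nearest Abca1 and Nr1h3; the Abcg1, Hnf4a, Gata4 and Idi1 values and those of markers were added after they were seen. Group labels, not replicate numbers, defined the comparisons: arrays with the same number correlated no more in their deviations (mean 0.00417, 18 of 75 pairs above 0.1) than other arrays (-0.000906). Sequences are RefSeq's, matched by symbol for 4 of 4 genes. The alternatives were the filter, scaling, test settings, a Gapdh covariate, a replicate block, the 2 groups alone, other probe sets and leaving out each array.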

Additional observations from a re-analysis of the deposited data

Results flagged for a closer look

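Of 42 groups of 5 arrays checked over the 7 probe sets, 4 held 1 array set apart from the rest by Dixon's criterion, where chance gives about 1 in 20. Female control pup 5 had an Abcg5 signal of 8.48, below the other 4 of its group, which ran from 9.34 to 9.64, and still above every female PBDE pup. Male PBDE pup 2 had the lowest Nr1h3 signal of its group, 10.77, where the others ran from 11 to 11.08. Female control pup 1 had the highest Nr1h3 signal of its group, 10.9, where the others ran from 10.46 to 10.57, and it lay among the female PBDE pups. Adult male PBDE rat 1 had an Abca1 signal of 8.6 in probe set 1382431_at, where the others ran from 9.26 to 9.52.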

How the results depend on the processing

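The pup differences of Abcg5, Abcg8 and Nr1h3 kept their direction in all alternatives run: Abcg5 ran from -2.51 to -1.90 in males and -2.27 to -1.68 in females, Abcg8 from -3.06 to -2.36 and -2.33 to -2.07, and Nr1h3 from 0.29 to 0.41 and 0.27 to 0.42. The filter on low values left Abcg8 out, so it gave no value for that gene. In adult males Abcg5 stayed lower with PBDE, from -1.10 to -0.73 on leaving out single arrays, and passed the threshold in 1 setting, the replicate block (-0.97, limma adjusted p = 0.0347); its adjusted p ran from 0.0347 to 0.304. The replicate numbers do not pair the animals, and under that block Abca8a in female pups lost its call (adjusted p = 0.0102). Abcg8 in adults ran from -0.71 to -0.49 and Nr1h3 from 0.20 to 0.32, with no adjusted p under 0.0953. Adult Abca1 turned to 0.01 on repeated quantile normalisation and 0.09 in probe set 1382431_at, and ran from -0.09 to 0.06 without single arrays. The other Abca1 probe sets gave -0.64 in male pups (1394490_at), -0.58, -0.29 and -0.79 in female pups, and -0.27, -0.06 and -0.09 for sex among control pups. Fitted with the 2 groups alone, adults had 2 of 63 listed genes and 173 of 14217 genes called, in place of 6 and 555, on fewer residual degrees of freedom; the Gapdh covariate gave 3 listed genes in adults, 14 in male pups in place of 13 and 7 in female pups in place of 9, and the cause was not tested. Without single adults the counts ran from 3 to 8 and from 366 (without PBDE rat 4) to 617. Without single female pups the 9 listed calls ran from 5 to 8. For sex among control pups 6 genes became 10 with the low-value filter, and 5 to 10 without single arrays (10 without male control pup 1); Abcg5 there ran from -0.03 to 0.47, Abcg8 from 0.32 to 1.02 and Nr1h3 from -0.0094 to 0.14. For sex among PBDE pups 8 genes became 3 with the 2 groups alone and 5 to 9 without single arrays (5 without female PBDE pup 2), and Abcg5 ran from -0.14 to 0.19. Of the called genes of the lists and markers, 5 of 8 in adults, 7 of 20 in male pups and 7 of 14 in female pups lost their call in at least 1 of 17 alternatives, and 0 reversed. Abcg8 lay below the array medians in PBDE pups and adults, and the effect of low signal on its differences was not tested.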
